A study of Arabidopsis thaliana with 12 samples.

Results

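The comparison described here is that of *Arabidopsis* root explants exposed to dexamethasone for 6 h with explants exposed to it for 1 h, chosen by their labels as the libraries 6hrDex and 1hrDex. It comprises 4 of the 12 RNA-seq libraries of the series, with replicates A and B at each time. All explants carried the 35S:LFY-GR transgene in the Landsberg *erecta* (L.er) background and were otherwise wild type. They were roots of seedlings kept on callus inducing medium (CIM) for 5 days, and the steroid or the mock solution was given during the last 6 h (Dex 6 h and Mock 6 h) or the last 1 h (Dex 1 h and Mock 1 h) of that time, so that the 4 groups used here share the transgene and the culture. The 4 mock libraries of the same times entered the model of the spread and are set beside the dexamethasone values. The labels call the tissue callus. Per the study's methods, tissue was harvested at ZT 6, that is 6 h after lights on.

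LEAFY (LFY) is the plant transcription factor that gives a meristem floral fate. LFY-GR joins it to the steroid-binding part of a mammalian glucocorticoid receptor, which keeps the protein in the cytoplasm until dexamethasone is added, and the viral 35S promoter drives the fusion in most cells, including root cells that normally lack LFY. Opening a plate and wetting plant tissue are themselves stimuli: touch and wounding set off rapid, transient waves of transcripts for calcium sensors, WRKY and ERF transcription factors and the jasmonate pathway in plants. In the dexamethasone arm alone, time since steroid and time since handling are the same variable and cannot be told apart, which is why the mock values of the same contrast are set beside the leading genes and the gene lists. With the harvest at a fixed hour of day, the hour at which handling began also goes with them, in both arms.

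Expression was counted as reads per gene. Between 46891400 and 66789371 reads fell on genes in the 8 libraries used, and the Dex 6 h libraries (64500029 and 66789371 reads) were deeper than the Dex 1 h libraries (56245920 and 57545315 reads). Levels are given as CPM, that is counts per 1000000 reads on genes after TMM scaling, and changes as log2 fold changes of Dex 6 h over Dex 1 h with their standard error. A gene was called when edgeR's quasi-likelihood test gave a Benjamini-Hochberg adjusted *p* (hereafter adjusted *p*) under 0.01 over all 21051 genes tested. With 2 libraries per group the test rests on the spread within 4 pairs of libraries.

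Replicates A and B differed in the same manner in 3 of the 4 groups, most in Dex 1 h. The root mean square distance between A and B was 0.527 log2 CPM in Dex 1 h, 0.454 in Mock 6 h and 0.368 in Mock 1 h, whereas both Dex 6 h libraries lay 0.225 apart. In Dex 1 h, replicate A over replicate B was correlated with the GC content of the exons across 17116 genes (Spearman's rho −0.53, genes are not independent replicates), and the same was found in Mock 6 h (−0.55) and Mock 1 h (−0.47) but not in Dex 6 h (0.09). The summed level of 92 chloroplast-encoded genes was 1525 and 1614 CPM in Dex 6 h, against 1478 CPM in Dex 1 h replicate A and 709.9 CPM in Dex 1 h replicate B, and replicates A and B had 1580 and 897 CPM in Mock 6 h and 1659 and 1011 CPM in Mock 1 h. Both Dex 6 h libraries were thus on the side of the A libraries, and lay closer to Mock 6 h replicate A (0.308 and 0.315) than to Mock 6 h replicate B (0.467 and 0.481). No label says whether the Dex 6 h libraries were prepared apart from the others. A preparation of their own would coincide with the contrast of Dex 6 h with Dex 1 h and cannot be told apart from it. The median exon GC content was 40.8% for risen genes, 41.5% for fallen genes and 41.1% for all genes tested. Whether the GC-linked difference between libraries contributed to the calls was not tested. The leading counts are therefore also given without Dex 1 h replicate B.

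Between 1 h and 6 h of dexamethasone, genes of the rapid touch and wound response, of jasmonate synthesis and signalling and of water deficit fell, and genes for small heat shock proteins rose. Of 21051 genes tested, 3045 were called (14.5%): 1186 were higher in Dex 6 h than in Dex 1 h (5.63% of genes tested) and 1859 were lower (8.83%). The change was at least 2-fold in 374 of the risen and 761 of the fallen genes, and at least 4-fold in 94 and 147. The median log2 change over all genes tested was 0.02. Without Dex 1 h replicate B the test called 752 rises and 1289 falls, and 1907 of the 3045 genes kept their call. Leaving out Dex 6 h replicate A or replicate B lowered the calls to 560 and 584. Libraries were left out singly, here and in what follows. None of the 3045 genes changed its sign in any of these fits.

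The largest rise among called genes with at least 50 reads on average was that of *AT5G55150*, which encodes an F-box SKIP23-like protein. It had 117 and 119 reads in Dex 6 h, against 4 and 0 reads in Dex 1 h, a log2 change of 5.45 ± 0.59 (SE, adjusted *p* = 0.00074). *AT1G07690*, a gene for an uncharacterized protein, had 212 and 232 reads in Dex 6 h and 2 and 6 reads in Dex 1 h (5.40 ± 0.42, adjusted *p* = 0.00018). Both genes were thus near their detection limit at 1 h. *HSP21*, which encodes a small heat shock protein of plastids, reached 9.26 and 9.23 CPM in Dex 6 h, against 0.306 and 0.404 CPM in Dex 1 h, which is 25.9-fold higher (adjusted *p* = 1.9e-05). *AT5G24640* (uncharacterized) had 15.4 and 15.5 CPM in Dex 6 h and 0.685 and 0.962 CPM in Dex 1 h, an 18.8-fold rise. *UGT74E2*, whose product attaches glucose to the auxin precursor indole-3-butyric acid, had 31.2 and 31.5 CPM in Dex 6 h and 1.86 and 2.15 CPM in Dex 1 h, a 15.6-fold rise. *ATHSP22.0*, a small heat shock protein of the endomembrane system, rose 14.7-fold, with 9.66 and 11.2 CPM in Dex 6 h and 0.793 and 0.616 CPM in Dex 1 h. For all 6 genes both Dex 6 h libraries were above both Dex 1 h libraries by far more than replicates differed. All 6 were also called as higher in Mock 6 h than in Mock 1 h, by log2 changes of 2.42 (*AT1G07690*) to 4.99 (*HSP21*).

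Among called genes with at least 50 reads on average, the 6 steepest falls included 3 genes of the cell wall. *MSRB7*, a methionine sulfoxide reductase that repairs oxidized protein, had 1.65 and 1.83 CPM in Dex 6 h, against 33.2 and 32.7 CPM in Dex 1 h, 18.9-fold lower (log2 change −4.24 ± 0.11, adjusted *p* = 1.2e-05). *XTH16*, a xyloglucan endotransglucosylase, had 0.564 and 0.687 CPM in Dex 6 h and 12.6 and 9.16 CPM in Dex 1 h, 17.3-fold lower. *EXLA2*, which encodes an expansin-like protein, had 3.13 and 3.35 CPM in Dex 6 h and 47.5 and 60.8 CPM in Dex 1 h, 16.7-fold lower. *AGP22*, which codes for a short arabinogalactan protein, had 10 and 14 reads in Dex 6 h and 138 and 170 reads in Dex 1 h. *TAT3*, a tyrosine aminotransferase gene known to respond to jasmonate, had 7 and 13 reads in Dex 6 h and 98 and 116 reads in Dex 1 h. *DDF1*, a transcription factor of the CBF/DREB family, had 12 and 10 reads in Dex 6 h and 82 and 122 reads in Dex 1 h, and its call, like that of *AGP22*, was lost when either Dex 6 h library was left out (adjusted *p* up to 0.016). *WOX12*, a homeobox gene known for its part in root formation from explants, lay just outside the 6 largest falls and was picked after its values were seen. It had 6.60 and 5.97 CPM in Dex 6 h, against 64.8 and 73.0 CPM in Dex 1 h (log2 change −3.45 ± 0.10, adjusted *p* = 1.2e-05). All 7 genes were also called as lower in Mock 6 h than in Mock 1 h, with log2 changes of −3.61 (*WOX12*) to −4.71 (*DDF1*).

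**Figure D1:**
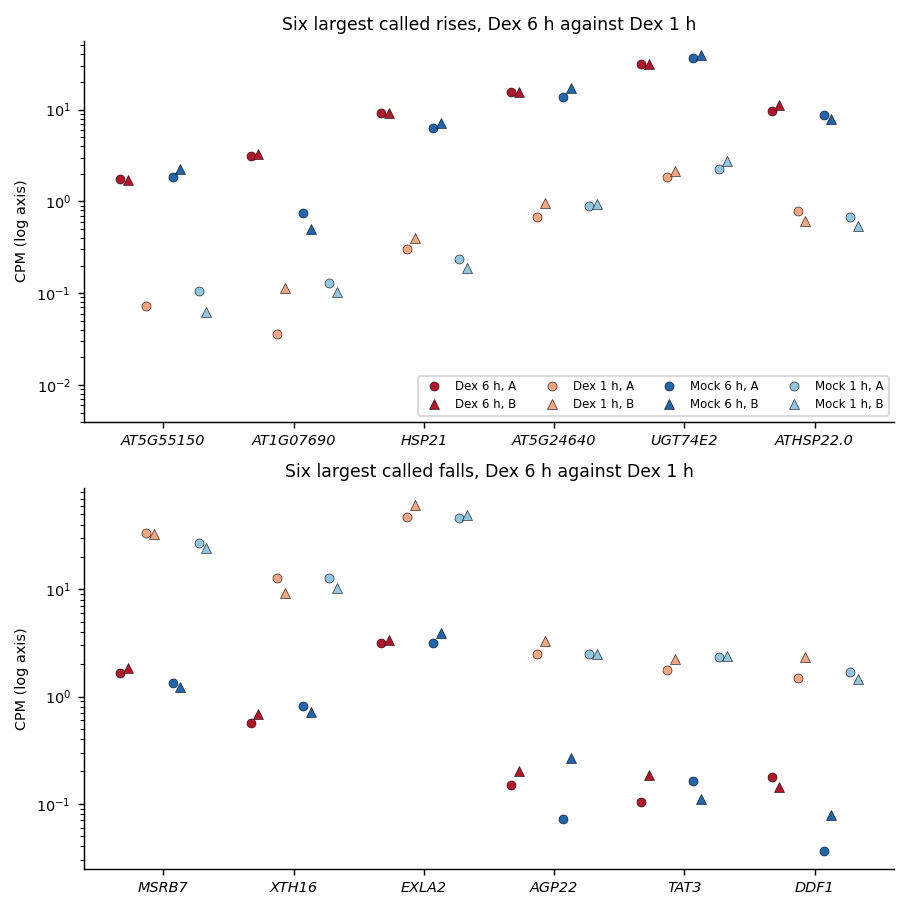
Levels of the 6 genes with the largest called rise (top) and the 6 with the largest called fall (bottom) in CPM on a log axis, 1 point per library (circle, replicate A; triangle, replicate B), with Dex 6 h, Dex 1 h, Mock 6 h and Mock 1 h from left to right for each gene. The value of 0 for *AT5G55150* in Dex 1 h replicate B is not drawn; for every gene the 6 h and 1 h points of each arm lie apart.

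Heat shock genes formed the group with the highest median change. Small heat shock proteins hold unfolding proteins in solution, and HSP90 and HSP101 are chaperones that fold and disaggregate proteins. Of 15 members tested, 12 rose and none fell (5.63% of all genes rose), and the median log2 change was 2.73 in the list and 0.02 over all genes. *HSP23.6-MITO*, a mitochondrial small heat shock protein, had 1501 and 1571 reads in Dex 6 h, against 61 and 105 reads in Dex 1 h, a 14.4-fold rise (adjusted *p* = 8.5e-05). *HSP18.2*, a cytosolic member, had 4.94 and 4.18 CPM in Dex 6 h and 0.487 and 0.519 CPM in Dex 1 h, a 9.03-fold rise (adjusted *p* = 0.00011). *HSFA2*, a heat shock transcription factor, rose by a log2 change of 1.31 (704 and 720 reads in Dex 6 h, 241 and 209 reads in Dex 1 h, adjusted *p* = 0.001). Members that did not pass were *HSP70* (*AT3G12580*, log2 change 0.12), *HSFA7A* (0.22) and *HSFA7B* (−0.14). Without Dex 1 h replicate B, 12 members were still called as risen, with a median of 2.94, and 8 were called without either Dex 6 h library. In mock explants 10 members rose over the same interval (3.69% of all genes rose), with a median of 2.20.

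The stretches of 250 bases before the annotated start of 3 small heat shock genes are shown because they hold the heat shock element in the form GAANNTTC, in capitals, which reads the same on both strands. Positions count from −1 at the base before the start, and sequences run 5′ to 3′ on the strand of the gene, from the RefSeq genome of assembly TAIR10.1. For *HSP21* (chr4:13819972-13820221, minus strand) the element starts at −100. For *AT1G53540* (chr1:19980049-19980298, plus strand), a small heat shock protein gene that rose by a log2 change of 2.62, it starts at −53. For *HSP17.4* (chr3:16984868-16985117, minus strand), which rose by 2.79, elements start at −99 and −18.
HSP21: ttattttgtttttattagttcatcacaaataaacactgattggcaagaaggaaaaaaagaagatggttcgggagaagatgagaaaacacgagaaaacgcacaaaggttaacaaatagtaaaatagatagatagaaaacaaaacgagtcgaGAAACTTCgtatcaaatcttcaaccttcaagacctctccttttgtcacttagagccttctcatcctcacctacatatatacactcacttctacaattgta
AT1G53540: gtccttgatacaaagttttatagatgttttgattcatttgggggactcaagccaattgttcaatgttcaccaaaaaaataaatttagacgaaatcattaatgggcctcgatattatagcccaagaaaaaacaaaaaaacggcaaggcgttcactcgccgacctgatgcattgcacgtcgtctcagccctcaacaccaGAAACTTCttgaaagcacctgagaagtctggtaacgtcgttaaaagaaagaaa
HSP17.4: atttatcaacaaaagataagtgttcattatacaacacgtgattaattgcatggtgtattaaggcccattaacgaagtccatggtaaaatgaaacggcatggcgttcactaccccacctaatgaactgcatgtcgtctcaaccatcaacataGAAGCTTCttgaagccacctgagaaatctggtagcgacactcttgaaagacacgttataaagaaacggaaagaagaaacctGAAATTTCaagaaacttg

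The element was found in this window for 6 of the 15 heat shock genes (40.0%) and for 2621 of 27437 protein-coding genes on the nuclear chromosomes (9.55%). Over all risen genes its share was 9.47%, and over all fallen genes 10.3%. The list of touch and wound genes, most of which fell, had it in 8 of 29 windows (27.6%). A match of letters is a description and not a binding site.

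Genes of the rapid touch and wound response were mostly lower in Dex 6 h. Of 29 members tested, 20 fell and none rose (8.83% of all genes fell), and the median log2 change was −1.37. Genes first found through their induction by touch were among them: *TCH2*, a calmodulin-like gene, fell to 2272 and 2296 reads in Dex 6 h, against 6536 and 7478 reads in Dex 1 h (log2 change −1.98, adjusted *p* = 5.3e-05), and *TCH4*, a xyloglucan endotransglucosylase, to 7713 and 8015 reads, against 23397 and 18395 reads in Dex 1 h (−1.76, adjusted *p* = 8.5e-05). Among regulators, *CBF1*, a cold-responsive transcription factor, had 4 and 2 reads in Dex 6 h and 37 and 56 reads in Dex 1 h (−4.25 ± 0.69, adjusted *p* = 0.0041). That call was lost without Dex 1 h replicate B (−3.86, adjusted *p* = 0.013) and without either Dex 6 h library (adjusted *p* = 0.036 and 0.050). *CBF2* had 0.475 and 0.401 CPM in Dex 6 h and 3.03 and 4.29 CPM in Dex 1 h, 8.33-fold lower. *CAF1a*, a subunit of the complex that shortens poly(A) tails, had 6.02 and 4.95 CPM in Dex 6 h and 39.0 and 52.2 CPM in Dex 1 h, 8.31-fold lower. *ZAT10*, a zinc finger repressor of stress responses, had 41.3 and 41.8 CPM in Dex 6 h and 166 and 218 CPM in Dex 1 h, 4.63-fold lower (adjusted *p* = 0.00025). The 9 members that were not called included *ZAT12* (0.04), *CML38* (0.19) and *SIB1* (0.28). Of the members, 17 were called without Dex 1 h replicate B, and 14 without either Dex 6 h library. In mock explants 19 members fell (6.98% of all genes fell), with a median of −1.67.

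The windows of *CBF2* (chr4:13016236-13016485, minus strand) and *TCH2* (chr5:14999620-14999869, minus strand) are printed because they hold CGCGTT, the box bound by calmodulin-binding CAMTA factors, shown in capitals on either strand. In *TCH2* the box overlaps its own reverse complement in both stretches, at −84 and at −65.
CBF2: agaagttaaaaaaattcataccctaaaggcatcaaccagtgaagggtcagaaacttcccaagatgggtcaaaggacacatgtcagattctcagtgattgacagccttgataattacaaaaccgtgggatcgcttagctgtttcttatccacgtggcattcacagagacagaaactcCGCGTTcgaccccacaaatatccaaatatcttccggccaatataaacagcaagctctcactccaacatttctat
TCH2: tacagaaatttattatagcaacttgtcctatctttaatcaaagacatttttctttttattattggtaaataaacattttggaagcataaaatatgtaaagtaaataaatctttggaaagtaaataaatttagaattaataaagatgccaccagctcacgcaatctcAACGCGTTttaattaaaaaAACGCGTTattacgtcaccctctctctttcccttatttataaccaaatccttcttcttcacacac

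CGCGTT or its reverse complement was present in the window of 710 of 27437 genes (2.59%), of 112 of 1848 fallen genes with a window (6.06%), of 20 of 1161 risen genes (1.72%) of 2 of the 29 members of this list (6.90%) and of 2 of the 15 jasmonate genes (13.3%).

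Jasmonate genes were lower at 6 h in nearly the whole list. Jasmonate is a lipid-derived wound hormone made by lipoxygenases, AOS, AOC and OPR3, and its target genes include those for the JAZ repressors that shut the response off. Of 15 members tested, 12 fell and none rose (8.83% of all genes fell), with a median log2 change of −1.42. In synthesis, *LOX3* (lipoxygenase) had 1.93 and 2.13 CPM in Dex 6 h and 16.9 and 20.2 CPM in Dex 1 h, 9.13-fold lower (adjusted *p* = 3.2e-05). *AOS*, which commits the pathway to jasmonate, and *OPR3*, which acts in peroxisomes, fell by 1.42 and 1.98 on the log2 scale. Of the repressors, *JAZ10* had 13.8 and 15.0 CPM in Dex 6 h and 71.7 and 67.3 CPM in Dex 1 h, 4.83-fold lower (adjusted *p* = 1.2e-05), and *JAZ5* had 4.57 and 4.06 CPM in Dex 6 h and 24.5 and 25.7 CPM in Dex 1 h, 5.81-fold lower. *JAZ7* had 27 and 27 reads in Dex 6 h and 190 and 128 reads in Dex 1 h (−2.90 ± 0.39, adjusted *p* = 0.0019). *JAZ9* (0.53), *JAZ12* (−0.31) and *VSP1* (−1.49) did not pass. Of the list, 11 members were called without Dex 1 h replicate B, without Dex 6 h replicate A 7 and without Dex 6 h replicate B 8, and *JAZ7* was called in neither of these last fits (adjusted *p* = 0.028 in both). In mock explants 12 members fell (6.98% of all genes fell), with a median of −1.26.

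*JAZ7* (chr2:14572780-14573029, plus strand) and *JAZ8* (chr1:10596102-10596351, plus strand), which fell by 2.90 and 2.00 on the log2 scale, have the G-box CACGTG (in capitals, the same on both strands) at −34 and −10 of their windows and are shown for that reason. The G-box is the element to which MYC factors of the jasmonate pathway bind.
JAZ7: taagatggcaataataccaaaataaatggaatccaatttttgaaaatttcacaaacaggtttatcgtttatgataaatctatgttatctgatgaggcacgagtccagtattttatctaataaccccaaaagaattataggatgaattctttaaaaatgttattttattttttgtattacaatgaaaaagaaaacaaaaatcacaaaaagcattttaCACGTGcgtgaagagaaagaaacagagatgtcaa
JAZ8: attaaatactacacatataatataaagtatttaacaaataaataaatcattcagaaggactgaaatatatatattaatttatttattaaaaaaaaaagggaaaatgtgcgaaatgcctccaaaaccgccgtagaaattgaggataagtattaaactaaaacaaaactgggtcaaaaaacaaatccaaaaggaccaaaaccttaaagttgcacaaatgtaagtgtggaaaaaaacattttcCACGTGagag

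It was found for 5 of the 15 jasmonate genes (33.3%) and in 1780 of all 27437 windows (6.49%), and its share was 8.06% among fallen genes and 7.41% among risen genes. In the clock list 6 of 20 windows held it.

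Genes of abscisic acid and water deficit followed the same direction. Abscisic acid is the hormone of drought and cold, and dehydrins and related proteins accumulate under it. Of 8 members tested 6 fell and none rose (8.83% of all genes fell), with a median log2 change of −1.47. *RD29A* had 0.608 and 0.644 CPM in Dex 6 h, against 5.93 and 7.41 CPM in Dex 1 h, 10.6-fold lower (adjusted *p* = 0.00011). The dehydrin genes *ERD10* and *COR47* were 5.27-fold and 2.68-fold lower, and *KIN1* was 2.85-fold lower. *RAB18* (−3.81, adjusted *p* = 0.078) and *HAI1* (−0.39) did not pass. There were 4 calls without Dex 1 h replicate B, and without either Dex 6 h library 3, when *KIN1* was not called (adjusted *p* = 0.024 and 0.016). In mock explants 4 members fell (6.98% of all genes fell), with a median of −1.41.

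**Figure D2:**
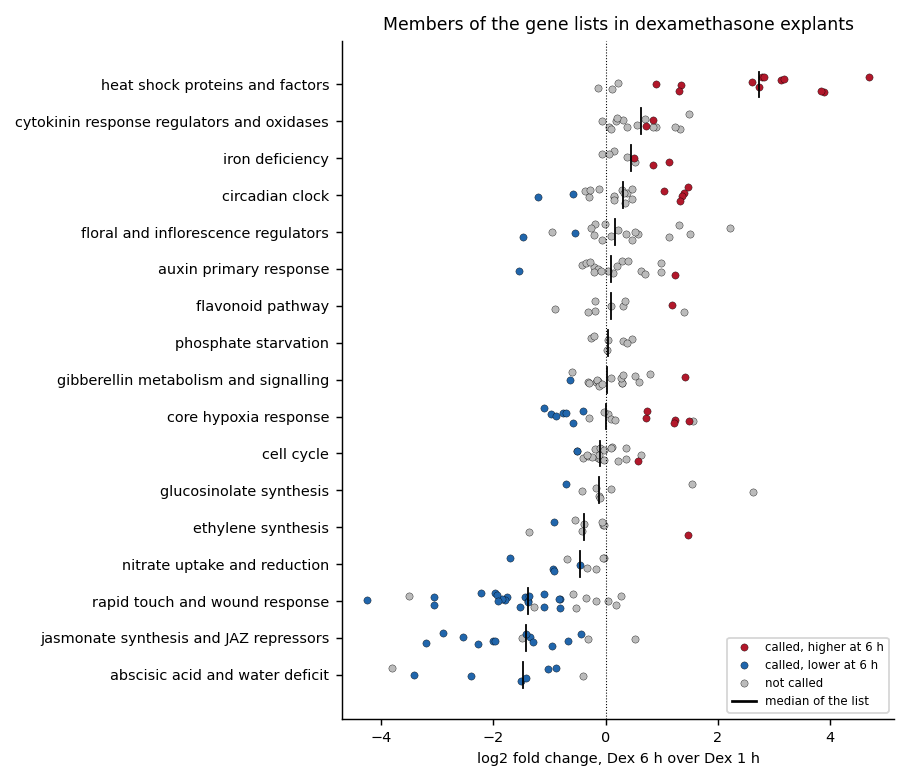
Log2 fold change of Dex 6 h over Dex 1 h for each tested member of the 17 gene lists, 1 point per gene (red, called as higher at 6 h; blue, called as lower; grey, not called) with the list median as a vertical bar. Heat shock genes lie at a median of 2.73, and the lists of touch and wounding, jasmonate and water deficit at −1.37, −1.42 and −1.47.

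Clock genes moved in both directions. As tissue was harvested at ZT 6, Dex 6 h and Dex 1 h share the hour of harvest and differ in the hour at which treatment began. The plant clock is a loop in which the morning factors CCA1 and LHY and the evening factors such as TOC1 repress each other. Of 20 members tested 5 rose and 2 fell (5.63% and 8.83% of all genes), with a median log2 change of 0.31. *CCA1* had 10.5 and 11.4 CPM in Dex 6 h and 4.18 and 3.77 CPM in Dex 1 h, a 2.76-fold rise (adjusted *p* = 0.00018). *PRR9*, an early-day repressor, rose 2.64-fold, and *RVE8* and *RVE4*, which activate evening genes, had log2 changes of 1.37 and 1.32. *LNK2*, a coactivator of the RVE factors, rose by 1.05 on the log2 scale. The evening gene *BOA* fell by 0.58, and *CHE*, a repressor of *CCA1*, had 712 and 683 reads in Dex 6 h and 1089 and 1410 reads in Dex 1 h, calls that were both lost without Dex 1 h replicate B, where 6 members rose and none fell. Without either Dex 6 h library 5 rose and none fell. *TOC1* (−0.12), *GI* (−0.37) and *LHY* (0.47, adjusted *p* = 0.014) did not pass. In mock explants 6 members rose and 1 fell (3.69% and 6.98% of all genes).

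Low-oxygen and nutrient genes split. The core hypoxia genes are switched on by ERF-VII factors when oxygen is short. Of 18 tested 5 rose and 7 fell (5.63% and 8.83% of all genes), with a median log2 change of 0.00. The AP2/ERF gene *HRE2* had 59.9 and 60.0 CPM in Dex 6 h, against 18.6 and 24.2 CPM in Dex 1 h, a 2.80-fold rise, whereas *HRA1*, a repressor of the response, had 129 and 127 CPM in Dex 6 h and 246 and 301 CPM in Dex 1 h, 2.14-fold lower. *SAD6*, a fatty acid desaturase gene, and *AT4G27450* rose 2.32-fold and 2.36-fold, and *ADH1*, alcohol dehydrogenase, rose by 0.72 on the log2 scale. Without Dex 1 h replicate B 5 rose and 4 fell, and without either Dex 6 h library 2 rose and 1 fell, when *HRE2* and *AT4G27450* kept their calls and *HRA1* (adjusted *p* = 0.013 and 0.014) and *SAD6* (0.053 and 0.049) did not. In mock explants 4 rose and 4 fell (3.69% and 6.98% of all genes). Of 9 nitrate genes 4 fell and none rose (8.83% of all genes fell). The high-affinity transporter *NRT2.1* was 3.27-fold lower (3.71 and 4.08 CPM in Dex 6 h, 10.8 and 14.6 CPM in Dex 1 h), *NRT1.1* 1.90-fold lower, and nitrate reductase *NIA1* 1.92-fold lower. *G6PD3*, a glucose-6-phosphate dehydrogenase, fell by 0.46. Without Dex 1 h replicate B only 2 nitrate genes were called, and *NIA1* (adjusted *p* = 0.015) was not one of them, and without either Dex 6 h library none was called (adjusted *p* of the 4 genes from 0.015 to 0.053). In mock explants 2 fell (6.98% of all genes fell). Of 8 iron genes 3 rose (5.63% of all genes rose): *F6'H1*, which makes scopoletin for iron uptake, rose 2.20-fold, the coumarin exporter *ABCG37* 1.79-fold, and *BTS*, a negative regulator of iron uptake, 1.42-fold. All 3 were called without Dex 1 h replicate B, none without Dex 6 h replicate A and only *ABCG37* without Dex 6 h replicate B. In mock explants 2 iron genes rose and 1 fell (3.69% and 6.98% of all genes). None of 7 phosphate starvation genes was called by edgeR or DESeq2, and 2 had an unadjusted *p* under 0.05. Over all 21051 genes, edgeR called 14.5%, and 8804 had an unadjusted *p* under 0.05.

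In the cytokinin, auxin and ethylene lists the share of called members was 12.5%, 11.1% and 22.2%, next to 14.5% of all genes. Among cytokinin response regulators and oxidases 2 of 16 were called, with a median log2 change of 0.63 and 15 of 16 values above 0. Over all genes, 10978 of 21051 values were above 0. Without Dex 1 h replicate B 13 of the 16 were above 0, with a median of 0.51. *ARR8* and *ARR6*, both negative regulators of cytokinin signalling, rose 1.80-fold and 1.65-fold, and both calls were lost without Dex 1 h replicate B (adjusted *p* = 0.019 and 0.018), where 1 other member was called. Without either Dex 6 h library no member was called. In mock explants, where 3.69% of all genes rose and 6.98% fell, 2 members rose, with a median of 0.17. Replicates A and B differed strongly for some members: *ARR5* had 27.5 and 29.5 CPM in Dex 6 h, against 17.2 CPM in Dex 1 h replicate A and 5.39 CPM in Dex 1 h replicate B, with 25.2 and 12.5 CPM in Mock 6 h and 19.4 and 12.3 CPM in Mock 1 h, and its change of 1.33 ± 0.53 did not pass (adjusted *p* = 0.099). The same pattern was seen in the auxin list for *IAA4*, with 133 and 140 CPM in Dex 6 h and 105 and 32.7 CPM in Dex 1 h, 134 and 51.8 CPM in Mock 6 h and 141 and 68.2 CPM in Mock 1 h (0.99 ± 0.62, adjusted *p* = 0.26). *ARR5* and *IAA4* were picked after their values were seen. Of 18 auxin genes, *IAA5*, an Aux/IAA repressor, rose 2.37-fold (5.00 and 4.97 CPM in Dex 6 h, 2.23 and 1.96 CPM in Dex 1 h), and *GH3.1*, which conjugates auxin to amino acids, was 2.91-fold lower (217 and 214 CPM in Dex 6 h, 526 and 729 CPM in Dex 1 h). Both calls were lost without either Dex 6 h library (adjusted *p* from 0.021 to 0.023), and in mock explants 2 auxin genes fell. In ethylene synthesis *ACS2* rose 2.76-fold and *ACS7* was 1.89-fold lower, of 9 genes tested. Both encode the enzyme for the rate-limiting step. *ACS7* was not called without either Dex 6 h library (adjusted *p* = 0.036 and 0.039), whereas *ACS2* was. In mock explants 1 ethylene gene rose and 1 fell (3.69% and 6.98% of all genes).

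Further lists held 1 or 2 calls each, and none of these calls held without either Dex 6 h library. In the flavonoid, glucosinolate and cell cycle lists the share of called members lay below the 14.5% of all genes tested. *MYB12*, an activator of flavonol genes, rose 2.26-fold, alone of 9 flavonoid genes tested (adjusted *p* = 0.029 and 0.021 without Dex 6 h replicate A or B). *SUR1*, which acts in glucosinolate synthesis, was 1.63-fold lower (1 of 8), a call lost without Dex 1 h replicate B (adjusted *p* = 0.019). Of 20 cell cycle genes, the D-type cyclin *CYCD2;1* rose 1.50-fold and *CDT1A*, a replication licensing factor, was 1.42-fold lower (adjusted *p* = 0.048 and 0.030 without Dex 6 h replicate A or B). The call of *CYCD2;1* was also lost without Dex 1 h replicate B (adjusted *p* = 0.021). In mock explants 2 flavonoid genes rose, 2 glucosinolate genes fell and 1 cell cycle gene fell (3.69% of all genes rose and 6.98% fell).

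None of 21 tested markers of root hair, endodermis, xylem, phloem, root cap and green tissue was called by edgeR or DESeq2 in the dexamethasone contrast, and 7 had an unadjusted *p* under 0.05. Of all genes, edgeR called 14.5%, and 8804 of 21051 had an unadjusted *p* under 0.05. In mock explants 3 of the 5 xylem and 2 of the 3 tested green tissue markers were called as higher at 6 h (3.69% of all genes rose). In bulk tissue, fewer cells of a type and less RNA per cell cannot be told apart. The summed level of the 3 root cap markers was 101 and 104 CPM in Dex 6 h and 106 and 99.2 CPM in Dex 1 h, that of the 5 xylem markers 84.9 and 78.8 CPM in Dex 6 h and 84.7 and 83.4 CPM in Dex 1 h (113 and 123 CPM in Mock 6 h, 85.5 and 88.2 CPM in Mock 1 h), and that of the 2 phloem markers 105 and 96.4 CPM in Dex 6 h and 71.1 and 91.5 CPM in Dex 1 h. The 3 tested green tissue markers summed to 28.3 and 26.9 CPM in Dex 6 h and to 17.6 and 24.6 CPM in Dex 1 h (31.8 and 43.6 CPM in Mock 6 h, 14.3 and 15.3 CPM in Mock 1 h), and the other 4 of that list had 0 to 4 reads in each of the 8 libraries. The 4 tested endodermis markers summed to 3.69 and 3.78 CPM in Dex 6 h and to 4.79 and 6.43 CPM in Dex 1 h, with *CASP1* at 0 in both Dex 6 h libraries, and the 4 root hair markers to 35.6 and 37.8 CPM in Dex 6 h and 33.8 and 32.7 CPM in Dex 1 h. Nearly all of the root hair sum was *RHD6* (35.3 and 37.3 CPM in Dex 6 h, 32.7 and 31.3 CPM in Dex 1 h), while the other 3 members had 3 to 39 reads in each dexamethasone library and negative log2 changes, so that the list median was −0.97.

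*LFY* itself had 265 and 257 CPM in Dex 6 h, against 249 and 347 CPM in Dex 1 h (log2 change −0.19 ± 0.20, adjusted *p* = 0.48). Reads of the transgene and of the native gene cannot be told apart. Dexamethasone acts on the place of LFY-GR in the cell, so this level does not report its activity. *ACT7*, an actin gene often used as a constant, had 539 and 542 CPM in Dex 6 h and 694 and 730 CPM in Dex 1 h (−0.40 ± 0.11, adjusted *p* = 0.028), and *ACR7*, a gene of ACT domain repeats, changed by −0.29 ± 0.07 (adjusted *p* = 0.019).

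Among floral regulators, 2 of 18 members tested were called and both fell (11.1%, next to 8.83% of all genes). *TEM1*, a repressor of flowering, had 33.3 and 31.5 CPM in Dex 6 h, against 80.0 and 99.0 CPM in Dex 1 h, 2.76-fold lower (adjusted *p* = 0.00032), and in mock explants it was also lower at 6 h (log2 change −1.72). *AP2*, a floral homeotic gene, was 1.46-fold lower (46.5 and 49.3 CPM in Dex 6 h, 69.8 and 69.6 CPM in Dex 1 h), a call lost without either Dex 6 h library (adjusted *p* = 0.026 and 0.017). In mock explants 1 member of the list fell (6.98% of all genes fell). *RAX1*, a MYB gene of axillary meristem formation, had 7.39 and 7.13 CPM in Dex 6 h, 3.75 and 2.10 CPM in Dex 1 h, 3.23 and 2.45 CPM in Mock 6 h and 2.31 and 2.65 CPM in Mock 1 h. Both Dex 6 h values lay above the other 6, and the log2 change of 1.31 ± 0.27 missed the threshold (adjusted *p* = 0.0104), with values from 0.0014 to 0.066 when single dexamethasone libraries were left out, whereas DESeq2 and the fit of all 12 libraries called it. For *RAX1* the difference between the arms was 1.115 ± 0.384 (adjusted *p* = 0.62). *AP1*, the floral meristem identity gene, was close to its detection limit, with 50 and 57 reads in Dex 6 h and 23 and 15 reads in Dex 1 h (1.14 ± 0.30, adjusted *p* = 0.028). In mock explants *AP1* had 21 and 19 reads at 6 h and 10 and 9 reads at 1 h (0.75 ± 0.36, adjusted *p* = 0.18). For *AP1* the difference between the arms was 0.39 ± 0.48 (adjusted *p* = 0.72). *TFL1*, a repressor of floral fate, had 15 and 22 reads in Dex 6 h, 2 and 4 reads in Dex 1 h, and at most 1 read in each mock library. Its change in dexamethasone explants was 2.22 ± 0.66 (adjusted *p* = 0.048), and its difference between the arms was 4.76 ± 2.42 (adjusted *p* = 0.62). *LSH2*, with 10 and 5 reads in Dex 6 h and 7 and 9 reads in Dex 1 h, was too low to be tested.

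*GA2OX4*, an enzyme gene that inactivates gibberellin (chr1:17698598-17701041, plus strand), was the only riser of 18 gibberellin genes tested (5.56%, next to 5.63% of all genes). It had 2522 and 2700 reads in Dex 6 h and 708 and 813 reads in Dex 1 h, which is 37.4 and 38.6 CPM in Dex 6 h, against 12.8 and 15.6 CPM in Dex 1 h (log2 change 1.42 ± 0.13, adjusted *p* = 0.00039). In mock explants it had 6.11 and 6.72 CPM at 6 h and 6.17 and 7.43 CPM at 1 h (−0.08 ± 0.14, adjusted *p* = 0.72). The change in dexamethasone explants exceeded that in mock explants by 1.51 ± 0.19, which did not pass over all genes (adjusted *p* = 0.092). The rise in dexamethasone explants was called whichever dexamethasone library was left out (log2 change 1.29 to 1.58, adjusted *p* 0.00039 to 0.0073). *GA2OX6*, of the same family, was 1.55-fold lower, a call lost without Dex 1 h replicate B (adjusted *p* = 0.029) or either Dex 6 h library (0.047 and 0.082), and *GA20OX1*, of gibberellin synthesis, changed by 0.78 without passing (adjusted *p* = 0.022).

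Genes to which the study's first round of peak annotation assigned an LFY ChIP-seq peak numbered 942, of which 858 were tested. Of these 59 rose and 153 fell, that is 6.88% and 17.8%, against 5.63% and 8.83% of all genes tested. Their median log2 change was −0.08 in dexamethasone explants and −0.10 in mock explants, where 27 rose and 133 fell. Of all genes tested, 3.69% rose and 6.98% fell in mock explants. The list overlaps that of touch and wounding, since *ZAT10* is in both. Without Dex 1 h replicate B 34 rose and 119 fell, without Dex 6 h replicate A 9 rose and 43 fell, and without Dex 6 h replicate B 8 rose and 45 fell. No member passed the test of the difference between dexamethasone and mock by edgeR, and 4 did by DESeq2. By edgeR, 98 of the 858 had an unadjusted *p* under 0.05. Over all 21051 genes tested, edgeR called 2, DESeq2 called 50, and 1485 had an unadjusted *p* under 0.05 by edgeR. Besides *GA2OX4*, the members with the smallest *p* in that test were as follows. *AT2G26390*, a serpin gene, had 8.75 and 8.19 CPM in Dex 6 h and 12.2 and 12.6 CPM in Dex 1 h, next to 1.81 and 1.64 CPM in Mock 6 h and 7.45 and 9.07 CPM in Mock 1 h, a difference of 1.71 ± 0.19 (adjusted *p* = 0.060). *AT1G73600*, a methyltransferase gene, had 14.6 and 16.4 CPM in Dex 6 h and 7.55 and 7.47 CPM in Dex 1 h, and stayed between 7.54 and 8.41 CPM in mock libraries (difference 1.12 ± 0.15, adjusted *p* = 0.094). *WIP4*, a zinc finger gene, was 1.89-fold lower in Dex 6 h than in Dex 1 h, while the log2 change in mock was −1.87 (difference 0.96 ± 0.13). *MYB56* rose 2.05-fold in dexamethasone explants with a log2 change of 0.51 in mock, and *AT5G44585* (uncharacterized) rose 2.42-fold with 0.18 in mock. The LFY core motif CCANTGG, which reads the same on both strands, was present in the 250-base window of 44 of 857 such genes (5.13%) and of 839 of 27437 genes (3.06%). The study also assigned peaks further upstream or within the gene, so this window need not hold the bound site. Under the peak summits themselves, the study reports the LFY consensus for the majority of peaks.

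Most of the change with time was also found without the steroid. In mock explants 2246 genes were called for Mock 6 h against Mock 1 h (10.7%), 777 higher (3.69%) and 1469 lower (6.98%), and 1751 genes were called in both arms, which is 57.5% of the dexamethasone calls and 78.0% of the mock calls. Of these, 1746 moved in the same direction, 568 up and 1178 down. Of the 3045 dexamethasone calls, 3012 had the same sign in mock explants. The median change of these 3045 genes in the dexamethasone direction was 0.83 in dexamethasone explants and 0.63 in mock explants. *HSP21* had a log2 change of 4.70 in dexamethasone and 4.99 in mock, *EXLA2* −4.06 and −3.75, and *WOX12* −3.45 and −3.61. The test of the difference between the arms called 2 genes (0.0095%), both with a higher change in dexamethasone explants, and 1485 genes had an unadjusted *p* under 0.05. DESeq2 on the same libraries called 50.

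**Figure D3:**
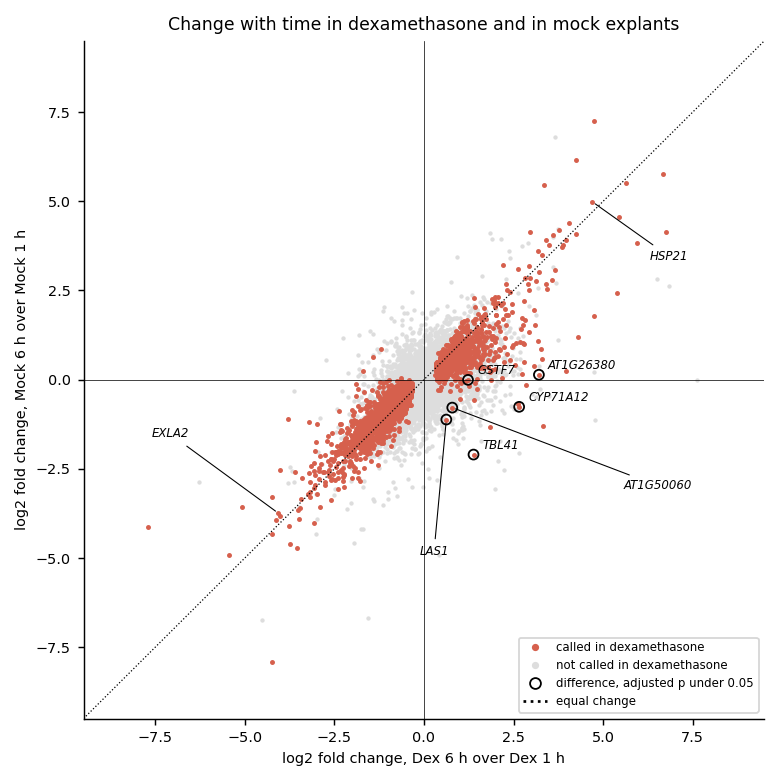
Log2 fold change of 6 h over 1 h in dexamethasone explants (horizontal) and in mock explants (vertical), 1 point per tested gene, red where called in dexamethasone explants and grey where not. Circles mark the 6 genes whose difference between the arms had an adjusted *p* under 0.05, all below the dotted line of equal change.

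The called genes were *CYP71A12*, a cytochrome P450 of camalexin synthesis, and *TBL41*, of a family that acetylates wall polysaccharides. *CYP71A12* had 16.1 and 17.9 CPM in Dex 6 h and 2.83 and 2.56 CPM in Dex 1 h, whereas it had 14.1 and 12.8 CPM in Mock 6 h and 24.4 and 21.2 CPM in Mock 1 h. The difference in log2 change was 3.42 ± 0.17 (adjusted *p* = 0.0014), and Dex 1 h was the group apart, below all 6 other libraries. *TBL41* had 6.14 and 6.17 CPM in Dex 6 h and 2.52 and 2.19 CPM in Dex 1 h, against 2.33 and 2.60 CPM in Mock 6 h and 10.6 and 10.6 CPM in Mock 1 h (difference 3.48 ± 0.18, adjusted *p* = 0.0014). Its order over time was opposite in the arms. A further 4 genes had an adjusted *p* under 0.05 and were picked for that reason after their values were seen. *AT1G26380*, a berberine bridge enzyme-like gene, had 6.33 and 7.14 CPM in Dex 6 h and 0.631 and 0.827 CPM in Dex 1 h, with 4.91 to 5.71 CPM in the mock libraries (difference 3.07 ± 0.23, adjusted *p* = 0.013). *GSTF7*, a glutathione S-transferase gene, had 320 and 325 CPM in Dex 6 h and 138 CPM in both Dex 1 h libraries, with 250 to 263 CPM in mock (difference 1.24 ± 0.10, adjusted *p* = 0.015). Its counts may include reads of close paralogs. *AT1G50060*, of the pathogenesis-related protein 1 superfamily, rose by 0.79 in dexamethasone and had a change of −0.78 in mock, and *LAS1*, lanosterol synthase, rose by 0.62 with −1.12 in mock. *AT1G50060* had 10.1 and 9.99 CPM in Dex 6 h and 5.48 and 6.16 CPM in Dex 1 h. Its mock levels were 14.2 and 15.2 CPM at 6 h and 26.1 and 24.6 CPM at 1 h. For *CYP71A12*, *AT1G26380*, *GSTF7* and *AT1G50060* the Dex 1 h libraries were the lowest of the 8.

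**Figure D4:**
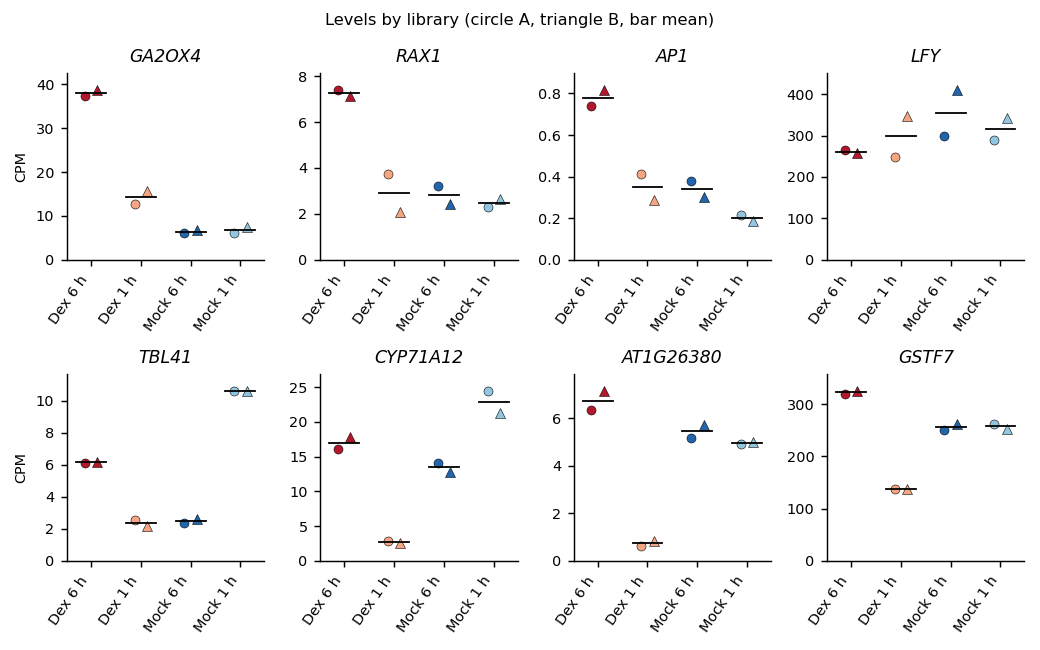
Level in CPM (linear axes from 0) of 4 genes of the LFY pathway and 4 genes with a difference between the arms, 1 point per library (circle, replicate A; triangle, replicate B) with the mean of each group as a bar. *GA2OX4* is highest in Dex 6 h at 37.4 and 38.6 CPM, and *CYP71A12*, *AT1G26380* and *GSTF7* are lowest in Dex 1 h.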

How the data were processed

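RNA was taken from 35S:LFY-GR root explants on CIM, with 2 libraries per treatment and time. The labels do not say whether replicates A and B came from separate cultures; the study's methods call them biological replicates. Per the submitters' processing notes the reads were trimmed with Trimmomatic 0.36, checked with FastQC 0.11.5, mapped to TAIR10 with STAR 2.5.3a and counted with HTSeq 0.7.2. The deposited values are raw read counts per gene for 37336 genes. Rows that name no gene (ambiguous, multi-mapped and similar reads, 15.7 to 22.3% of the total in the 8 libraries used) were left out.

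The model held the 8 libraries of Dex and Mock at 1 h and 6 h, since sharing the spread over 4 groups gives more residual degrees of freedom than 2 groups of 2, and was made with edgeR 4.0.16 (filterByExpr, TMM, quasi-likelihood F test, R 4.3.3), without a replicate term, with contrasts for Dex, for Mock and for their difference. DESeq2 1.42.0 was an alternative. Of the genes, 21051 passed the filter. Counts of 20769 genes were simulated for the dexamethasone contrast, with 200 genes changed. On these counts edgeR recovered 89% of 2-fold and 100% of 4-fold changes, with 1 false call. It made 1 false call for the difference between the arms (DESeq2 made 4). In the real libraries replicates lay 0.225 to 0.527 log2 CPM apart, and A minus B deviations were correlated at up to 0.70 between groups. Whether the simulated rates hold under such deviations was not tested. The p-values measure the spread between these libraries only.

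The named genes were 8 loci (*LFY*, *AP1*, *RAX1*, *LSH2*, *ACR7*, *ACT7*, *TFL1* and *GA2OX4*), the 6 largest called rises and falls with a mean of at least 50 reads in the 4 dexamethasone libraries, up to 4 called members per list with the largest change, and the 6 LFY peak genes with the smallest p of the difference; all other genes given with values, among them *HSFA2*, *TCH2*, *TCH4*, *AOS*, *OPR3*, *JAZ8*, *LNK2*, *BOA*, *CHE*, *ADH1*, those printed for their promoter and the list members that did not pass, were picked after their values were seen. The 17 functional and 6 marker lists and the comparison itself were chosen with earlier results of these data known. The LFY peak list is the study's gene membership only. Gene names and roles came from the RefSeq annotation, whose assembly TAIR10.1 overlapped the study's 345 within-gene peaks in the same gene in 345 cases.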

Additional observations from a re-analysis of the deposited data

Results flagged for a closer look

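The change between 1 h and 6 h differed between dexamethasone and mock explants for *CYP71A12*, with a log2 difference of 3.42, and for *TBL41*, with a log2 difference of 3.48. Both were found by the test of the difference itself in edgeR (adjusted *p* = 0.0014 each). The Dex values were 16.1 and 17.9 CPM at 6 h and 2.83 and 2.56 CPM at 1 h for *CYP71A12*, and 6.14 and 6.17 CPM at 6 h and 2.52 and 2.19 CPM at 1 h for *TBL41*. Leaving out Dex 1 h replicate B or replicate A kept both calls, whereas without any 1 of the other 6 libraries the adjusted *p* of both genes was between 0.014 and 0.034.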

How the results depend on the processing

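The 3045 calls in dexamethasone explants were 1088 with the 4 dexamethasone libraries alone, 4758 with DESeq2 on the 8 libraries, 6083 at an adjusted *p* under 0.05 and 1135 with a change of at least 2-fold in addition. The other normalization, filters, drawn-down counts, all 12 libraries and DESeq2 on the 4 libraries gave 2958 to 4069. Leaving out single libraries gave 560 to 3759. For mock explants (2246 calls) DESeq2 gave 3835, the looser threshold 4916, the 2-fold limit 872 and single libraries left out 596 to 3146. The difference between the arms (2 calls) gave 13 with 12 libraries, 50 with DESeq2, 8 without the filter, 6 at an adjusted *p* under 0.05 and 0 to 2 with single libraries left out. The 90 called members of the gene lists became 43 to 98 when single libraries were left out. Where a group kept 1 library, that library was assumed to vary like the other groups. Calls lost without either Dex 6 h library included 29 of the named genes each time, all with the same sign, and those lost without Dex 1 h replicate B included 9. The mock libraries left out and the mock alternatives were chosen after seeing the data.

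The replicate letters were also used as a block. That gave 5121 calls in dexamethasone, 3910 in mock and 11 for the difference with 8 libraries, and 3099 with the 4 dexamethasone libraries. The letters pair the samples only in part: A minus B deviations were correlated at 0.70 (Dex 1 h and Mock 6 h), 0.53 (Dex 1 h and Mock 1 h) and 0.56 (Mock 6 h and Mock 1 h), but at −0.04 between Dex 6 h and Dex 1 h, and no label says what a letter shares. Depth limits genes with few reads, such as *AP1*, *TFL1* and *LSH2*.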
